A study of Mus musculus with 48 samples.

Results

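Type 2 immunity in subcutaneous fat was followed through 10 genes, chosen by name from the 54532 genes listed in the count table: Il33, Il1rl1, Il5, Il13, Il5ra, Gata3, Klrg1, Ccl11, Siglecf and Arg1. IL-33 is an alarmin, a nuclear cytokine that stromal and endothelial cells release on damage. It binds the receptor ST2, encoded by Il1rl1, on group 2 innate lymphoid cells (ILC2), regulatory T cells and mast cells, and ILC2 answer with IL-5 and IL-13. IL-5 sustains eosinophils, CCL11 (eotaxin) attracts them, and IL-13 drives the alternative activation of macrophages, of which arginase 1 is a classical marker; in white fat this circuit is known for its link to beige adipocytes.

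RNA-seq was performed on inguinal fat, the subcutaneous white adipose tissue (sWAT) of the mouse, from C57BL/6 (C57BL/6J in the study's methods) mice 8 months old that were fed ad-lib or under TAN, the study's regimen of food given only in 2 windows of the night, with 4 libraries per diet at each of 6 times of day (8AM, 12PM, 4PM, 8PM, 12AM and 4AM), 48 libraries in all. The series design names the stromal vascular fraction as the source while the study's methods describe whole tissue, and the adipocyte genes Adipoq, Plin1, Cidec, Lep and Fabp4 summed to 4017 CPM (counts scaled to a common library size) or more in every library. The study worked with male mice, and the labels do not say whether a library held tissue of 1 mouse, so that p-values measure the spread between libraries. Libraries held 15685080 to 25440243 counts under TAN and 15636378 to 29913310 counts ad-lib. The times are those of the count table and of the labels; another table of the study lists the same 48 libraries 12 h apart from these labels, which leaves the diet of each library and the comparisons of diet at a shared time unaffected but leaves the clock time of each comparison uncertain.

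The libraries differed in RNA of genes that lymph nodes express, and the inguinal depot is known to hold a lymph node; the study's methods describe removing the nodes for its isolation of stromal cells. The summed level of 10 B cell markers (among them Cd22, Cd79a, Cd79b, Ms4a1, Fcer2a, Cr2, Pax5, Cd37 and Blk) lay between 11.8 and 37.8 CPM in 10 libraries and between 279 and 2021 CPM in the other 38, with no library in between. The 10 low libraries were TAN 4PM replicates 1, 2 and 4, TAN 8PM replicate 4, TAN 12AM replicates 2 and 4, ad-lib 8AM replicate 4, ad-lib 12PM replicates 1 and 3, and ad-lib 4AM replicate 3. In TAN 8PM replicates 1 and 2 the 10 T cell markers summed to 2283 and 2369 CPM, against 1085 CPM at most elsewhere. In bulk tissue, fewer cells of a type and less RNA per cell cannot be told apart.

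On a scale of mean CPM per kilobase of gene length, Ccl11 was the most abundant of the 10 genes (48.6), followed by Il33 (9.59). Klrg1 (1.24), Il5ra (1.19), Il1rl1 (1.02) and Gata3 (0.683) lay close together, and Arg1 (0.330), Il13 (0.120), Siglecf (0.0553) and Il5 (0.0225) were lower. The filter on low counts kept 7 of the 10 genes; Il5, Il13 and Siglecf did not pass it and are described by their counts alone.

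**Figure D1:**
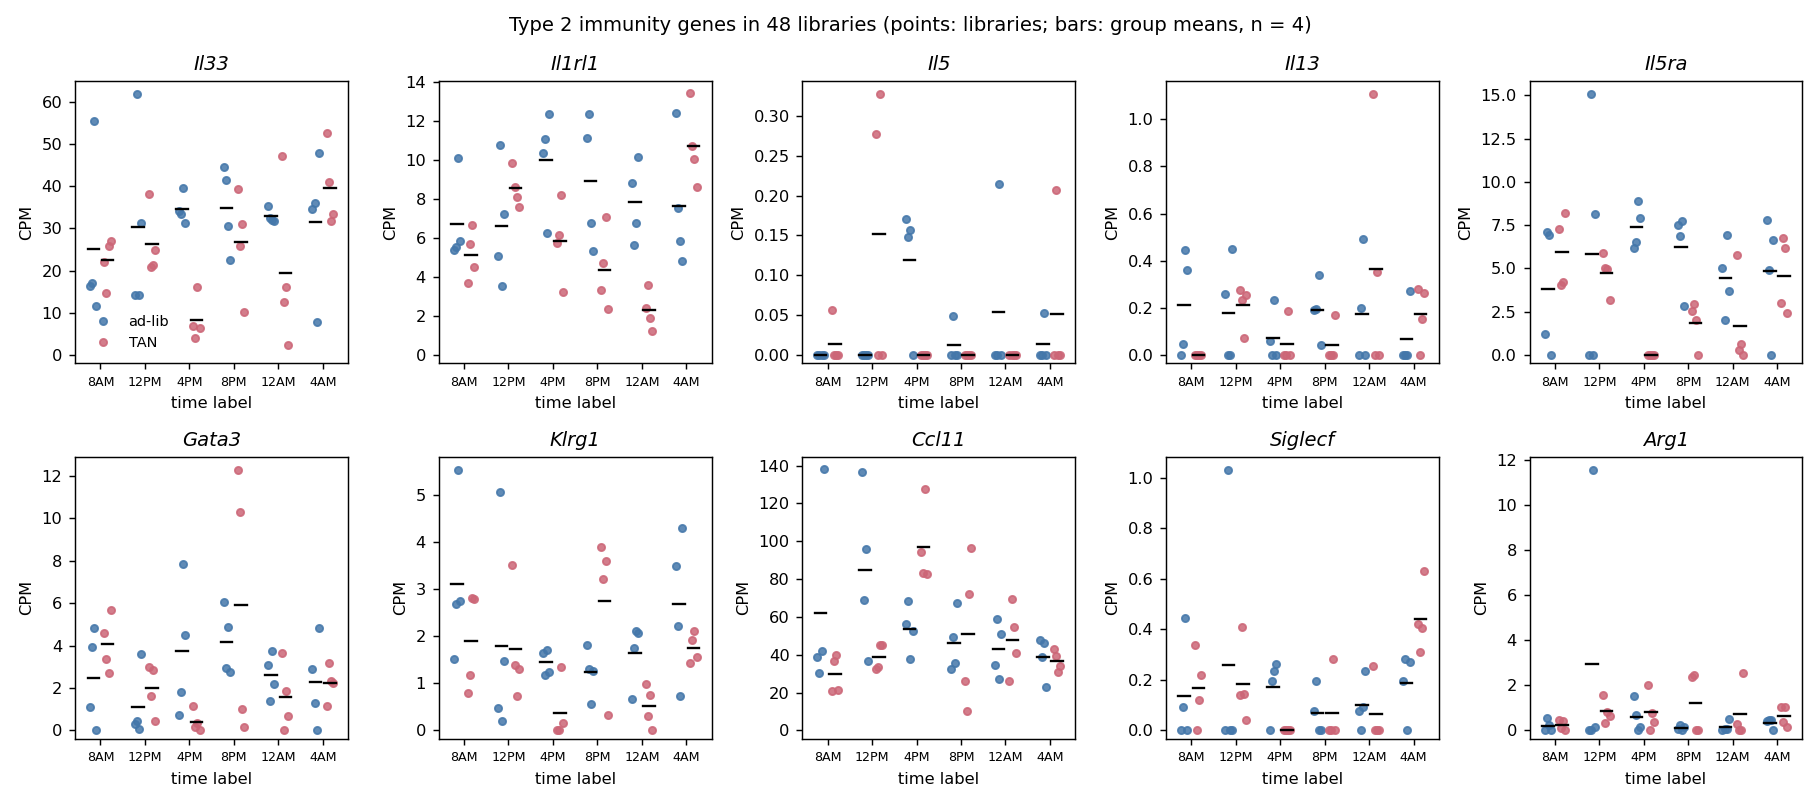
CPM of the 10 genes in each library, by time label and diet (ad-lib blue, TAN red; black bars are the means of 4 libraries). The groups do not overlap, with TAN below ad-lib, for Il33 and Il5ra at 4PM and for Il1rl1 at 12AM. They do not overlap, with TAN above ad-lib, for Ccl11 at 4PM and for Siglecf at 4AM. The share of all genes whose groups do not overlap is not given here. For Siglecf at 4AM, TAN replicate 2 and ad-lib replicates 2 and 4 each had 6 counts (0.310 against 0.283 and 0.272 CPM). Those libraries are set apart by library size alone. Il5, Il13 and Siglecf stay at or under 1.11 CPM in every library.

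Of the 7 genes tested, Il33 and Il5ra were lower under TAN at 4PM (of all 19977 genes tested, 7.43% were called lower there) and Il1rl1 was lower at 12AM (0.025% of all genes were called lower). A call within a time point required, in edgeR's quasi-likelihood test, an adjusted p below 0.05 together with an absolute log2 fold change above 1. No member was called at 8AM (0.015% of all genes called in either direction), 12PM (0.0901%), 8PM (7.03%) or 4AM (0%). At an unadjusted p under 0.05 those 4 comparisons gave 1, 1, 1 and 0 members in edgeR, 1, 1, 2 and 0 in DESeq2 and 0, 2, 1 and 0 in limma voom. The median log2 fold change of the 7 members was -1.89 at 4PM against -0.09 over all genes, -0.75 against -0.14 at 12AM, and between -0.21 and 0.15 at the other 4 times.

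Il33 (ENSMUSG00000024810, chr19:29925114-29960718, plus strand, GRCm38), the alarmin of the circuit, was detected in all 48 libraries with 33 to 1756 counts. At 4PM the 4 TAN libraries held 6.90, 3.94, 16.1 and 6.47 CPM, and the 4 ad-lib libraries 34.0, 33.5, 39.5 and 31.4 CPM. Every TAN library lay below every ad-lib library. The log2 fold change was -2.05 (SE 0.57, adjusted p = 0.0192, edgeR's quasi-likelihood test, Benjamini-Hochberg adjusted, n = 4 against 4 libraries). Leaving out TAN 4PM replicate 1, TAN 4PM replicate 2 or ad-lib 4PM replicate 3 ended this call, at adjusted p of 0.0661, 0.051 and 0.0575.

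The fall of Il33 at 4PM stood beside a difference in lymphocyte and lymph node genes. At 4PM the B cell markers summed to 37.8, 11.8, 279 and 21.9 CPM in the TAN libraries and to 1024 CPM or more in the ad-lib libraries, and the TAN library with the most B cell RNA, replicate 3, was also the one with the most Il33. The T cell markers summed to 8.86 to 172 CPM under TAN against 426 to 785 CPM ad-lib, and the genes of lymph node stroma and venules (Ccl19, Ccl21a, Glycam1, Cxcl13, Madcam1 and Chst4) to 6.16 to 56.5 CPM against 134 to 236 CPM. The adipocyte markers went the other way, from 20583 CPM or more under TAN to 13993 CPM or less ad-lib. With the log2 mean of 10 lymphocyte markers as a covariate, the log2 fold change of Il33 at 4PM was -0.71 (SE 0.34, adjusted p = 0.364) and 0% of all genes were called at that time, while 2 members, Il33 and Il5ra, had an unadjusted p under 0.05. Without the 10 libraries low in B cell markers it was -1.12 (adjusted p = 0.203), with a single TAN library left at 4PM.

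The same relation held across the series, as a description. Il33 lay between 2.28 and 14.3 CPM in the 10 libraries low in B cell markers and between 14.7 and 62.0 CPM in the other 38. Among the low libraries the 4 ad-lib ones held 7.81 to 14.3 CPM and the 6 TAN ones 2.28 to 12.4 CPM, and the diets overlapped. The lowest value of the series, 2.28 CPM, was TAN 12AM replicate 4. Over the 48 libraries the median Pearson r of Il33 with the 10 B cell markers was 0.82 and with the 5 adipocyte markers -0.53, points that share the composition of each library.

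At the other times the Il33 groups overlapped. Its log2 fold change was -0.17 (SE 0.55) at 8AM, -0.21 (0.55) at 12PM, -0.38 (0.55) at 8PM, -0.75 (0.55) at 12AM and 0.33 (0.55) at 4AM, all with an adjusted p of 0.499 or more. At 12AM the TAN libraries spread from 2.28 to 47.2 CPM, around a mean of 19.5 CPM (SD 19.4), whereas the ad-lib libraries spread from 31.7 to 35.4 CPM. The signs at 8AM and 12PM each rested on 1 ad-lib library: without ad-lib 8AM replicate 3 (55.6 CPM) the value at 8AM was 0.56, and without ad-lib 12PM replicate 2 (62.0 CPM) that at 12PM was 0.38. The mean TAN effect over the 6 times was -0.54 (SE 0.22, adjusted p = 0.146), and -0.69 (adjusted p = 0.032) without TAN 12AM replicate 1. With the lymphocyte covariate in edgeR the mean effect was -0.34 (SE 0.12, adjusted p = 0.0954). In that fit Il33 was at -0.48 at 8AM, -0.81 at 12PM, -0.22 at 8PM, -0.10 at 12AM and 0.27 at 4AM. None of these was called (adjusted p of 0.279 or more), and at 12PM the unadjusted p was 0.0147.

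Il1rl1 (ENSMUSG00000026069, chr1:40429570-40465415, plus strand, GRCm38) encodes ST2, the receptor of IL-33, which exists in a membrane-bound and a soluble form. RefSeq gives it 2 start sites, of which the distal one is known to be used by haematopoietic cells and mast cells and the proximal one by fibroblasts, and a count per gene cannot tell them apart. The 250 bases before each start site (GRCm38.p6, plus strand) are shown because ILC2 and mast cells depend on GATA factors, Gata3 among them; capitals mark each GATA or, for the opposite strand, TATC. The distal window is chr1:40429320-40429569 and the proximal window chr1:40439379-40439628.
Il1rl1 distal: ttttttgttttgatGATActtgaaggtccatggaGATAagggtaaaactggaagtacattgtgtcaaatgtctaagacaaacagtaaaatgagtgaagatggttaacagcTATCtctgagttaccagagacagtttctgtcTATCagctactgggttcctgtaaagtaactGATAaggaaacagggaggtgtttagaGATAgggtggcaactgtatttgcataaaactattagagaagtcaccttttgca
Il1rl1 proximal: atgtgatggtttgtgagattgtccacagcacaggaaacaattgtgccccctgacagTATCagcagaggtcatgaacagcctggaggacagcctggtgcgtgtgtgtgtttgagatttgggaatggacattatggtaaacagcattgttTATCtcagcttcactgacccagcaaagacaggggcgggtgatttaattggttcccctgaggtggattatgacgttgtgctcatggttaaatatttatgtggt
The distal window held 6 such matches, the most of the 9 windows of 7 members. The windows of Il33 held 2 each, those of Il5, Il13, Il5ra and Siglecf 1 each, and that of Gata3 0. Of the 32851 RefSeq windows of the same length, 0.338% held as many as the distal window or more. The proximal window held 2, and 24.2% of windows held as many or more. At least 1 was found in 53.6% of all windows. The longer AGATAA, or TTATCT for the opposite strand, occurred 1 time in the distal window. It also occurred 1 time each in the proximal, Il13 and Il5ra windows, and 9.99% of all windows held at least 1. A match of 4 letters is a description of the sequence and not a binding site.

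Il1rl1 counts were 18 to 331 per library. At 12AM the TAN libraries held 2.43, 3.58, 1.88 and 1.25 CPM, and the ad-lib libraries 8.83, 5.65, 6.78 and 10.1 CPM. All 4 TAN libraries lay below all 4 ad-lib libraries. The log2 fold change was -1.78 (SE 0.38, adjusted p = 0.0299, edgeR's quasi-likelihood test, n = 4 against 4). The call ended when TAN 12AM replicate 3 or 4 or ad-lib 12AM replicate 1, 3 or 4 was left out, with log2 fold changes between -1.79 and -1.55 and adjusted p between 0.0775 and 0.171. It also ended without the filter on low counts (adjusted p = 0.0543), in limma voom (0.0861), in a fit of the 12AM libraries alone (0.131) and without the 10 libraries low in B cell markers (0.161), with log2 fold changes of -1.77, -1.81, -1.80 and -1.86.

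Among the TAN libraries of 12AM, replicate 2 held the most Il1rl1 (3.58 CPM) and the least B cell RNA (14.5 CPM). In replicates 1, 3 and 4 the B cell markers summed to 1243, 320 and 18.9 CPM, and Il1rl1 fell in the same order (2.43, 1.88 and 1.25 CPM). With the lymphocyte covariate the log2 fold change was -1.43 (SE 0.38, adjusted p = 0.132, where 0.015% of all genes were called lower). The mast cell and basophil genes (Cpa3, Mcpt4, Cma1, Tpsb2, Ms4a2, Kit and Mcpt8) summed at 12AM to 89.8, 198, 87.0 and 50.4 CPM under TAN and to 129 to 238 CPM ad-lib, and with this sum as a covariate Il1rl1 was still called, at -1.52 (SE 0.32, adjusted p = 0.0262, where 0.12% of all genes were called lower). The 7 eosinophil genes summed to 0.554 to 6.65 CPM under TAN and to 7.34 to 10.4 CPM ad-lib, of which Epx and Ear6 are granule genes with 6 and 1 counts at most in any library. The adipocyte markers summed at 12AM to 17960 to 34255 CPM under TAN and to 12721 to 18837 CPM ad-lib, the endothelial markers had medians of 261 and 349 CPM, and the mitochondrial share was 11.9% in TAN 12AM replicate 4 against 4.27 to 6.77% in the other 12AM libraries. Their part in the difference was not tested, nor was that of the cells above beyond these fits.

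The TAN effect on Il1rl1 differed between the 6 times (interaction test, adjusted p = 0.0223, where 8.98% of all genes passed). Beside the value at 12AM, its log2 fold change was -0.39 at 8AM, 0.36 at 12PM, -0.78 at 4PM, -1.02 at 8PM (adjusted p = 0.0585) and 0.49 at 4AM. The interaction with the lymphocyte covariate had an adjusted p of 0.0832, and with B and T cell sums as 2 covariates of 0.301, and without the 10 libraries low in B cell markers of 0.0743. Under TAN its level varied over the day (adjusted p = 0.0014, where 23% of all genes varied), from a mean of 2.28 CPM (SD 0.99) at 12AM to 10.7 CPM (SD 2.0) at 4AM. At 4AM the TAN libraries held 13.5, 10.7, 10.1 and 8.64 CPM, each above each TAN library of 12AM. This variation passed with the lymphocyte covariate too (adjusted p = 0.00099, where 18.2% of all genes varied) and in each of the 48 fits that left out a library. Ad-lib group means ranged from 6.64 CPM (SD 3.15) at 12PM to 10.02 CPM (SD 2.6) at 4PM, neighbouring groups overlapped, and no member varied over the day ad-lib (edgeR's quasi-likelihood test, 0.0551% of all genes varied; 1 member, Arg1, had an unadjusted p under 0.05, as in DESeq2, and 0 in limma voom).

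Averaged over the 6 times, Il1rl1 and Il5ra were the 2 members lower under TAN (2.74% of all genes were called lower). The mean log2 fold change of Il1rl1 was -0.52 (SE 0.15, adjusted p = 0.034). Its adjusted p moved to between 0.0502 and 0.0677 without, in turn, TAN 8AM replicate 1, TAN 12PM replicate 4, TAN 12AM replicate 3 or 4, TAN 4AM replicate 4, ad-lib 8AM replicate 3, ad-lib 12PM replicate 2, ad-lib 4PM replicate 4, ad-lib 8PM replicate 1 or 2, ad-lib 12AM replicate 4 or ad-lib 4AM replicate 1. It was 0.0547 in limma voom, 0.0527 with the lymphocyte covariate, 0.104 with B and T cell sums as covariates, 0.147 with the mast cell covariate and 0.0337 without the 10 libraries low in B cell markers.

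Il5 (ENSMUSG00000036117, chr11:53720794-53725106, plus strand) and Il13 (ENSMUSG00000020383, chr11:53631324-53634702, minus strand), the effector cytokines of ILC2 and T helper 2 cells, were close to the limit of detection. Il5 had a count in 4 of 24 TAN and 6 of 24 ad-lib libraries, 20 and 19 counts in all, and its highest count was 9. Il13 had a count in 11 TAN and 14 ad-lib libraries, with 71 and 88 counts in all and 26 counts at most, in TAN 12AM replicate 1. A count of 0 allows up to 3 counts, which is 0.092 to 0.217 CPM in these libraries, for counting error only. Il13 had 0, 0, 0 and 0 counts under TAN and 0, 1, 14 and 5 ad-lib at 8AM, and 0, 0, 0 and 3 under TAN and 5, 4, 8 and 1 ad-lib at 8PM, and the groups overlapped at both times. It passed the filter without the 10 libraries low in B cell markers, where edgeR gave an adjusted p of 0.969 at 8AM and 0.0963 at 8PM (unadjusted p of 0.0206 and 0.0245). Il5 passed the filter in no fit.

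Il5ra (ENSMUSG00000005364, chr6:106710357-106749037, minus strand, GRCm38), the ligand-binding chain of the IL-5 receptor, is found on eosinophils and also on B cells. At 4PM all 4 TAN libraries had 0 counts, and the ad-lib libraries had 109, 132, 227 and 211 counts, or 6.18, 6.50, 8.87 and 7.88 CPM. The groups did not overlap (adjusted p = 0.00857, edgeR's quasi-likelihood test, n = 4 against 4). Set against a floor of 3 counts per library, at most 0.183 CPM, the TAN level was at least 40.2-fold lower than the ad-lib mean of 7.36 CPM.

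Il5ra followed B cell RNA across the whole series. It was at 0 counts in 9 of the 10 libraries low in B cell markers, in both diets, and had 4 counts in the other, TAN 12AM replicate 2. Of the 38 remaining libraries 1 was at 0, TAN 4PM replicate 3, which had 279 CPM of B cell markers; ad-lib 8AM replicate 1 and TAN 12AM replicate 3, with 296 and 320 CPM of B cell markers, had 18 and 11 counts. The median r with the B cell markers was 0.93, and with the eosinophil genes that passed the filter 0.41. Il5ra with the lymphocyte covariate was not called at 4PM (adjusted p = 0.0613, unadjusted p = 6.98e-06, where 0% of all genes were called), nor with B and T cell sums as covariates (adjusted p = 0.0527). At 8PM it was called lower under TAN with the lymphocyte covariate, with a log2 fold change of -1.77 (SE 0.51, adjusted p = 0.0139, where 9.56% of all genes were called lower), and was not called with B and T cell sums as covariates, at -0.78 (SE 0.66, adjusted p = 0.52). At 8PM the TAN libraries held 2.53, 2.93, 1.99 and 0 CPM and the ad-lib libraries 7.50, 6.87, 7.75 and 2.83 CPM, and the groups overlapped. The endothelial markers summed at 8PM to 139 to 253 CPM under TAN and to 340 to 430 CPM ad-lib, and the mast cell and basophil genes to 29.8 to 277 and 135 to 365 CPM; their part was not tested.

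The mean TAN effect on Il5ra passed the test (adjusted p = 0.0326), and it did so with the lymphocyte covariate (adjusted p = 0.00732, where 2.54% of all genes were called lower) and without the 10 libraries low in B cell markers (adjusted p = 0.000405, a fit with a single TAN library of 4PM, at 0 counts). The mean log2 fold change was -2.19 (SE 0.61), and -1.31 (SE 0.29) with the lymphocyte covariate. The 4PM libraries enter these means at -10.3 and -6.51, where all 4 TAN libraries had 0 counts and the size of a fold change is not measured. In the fit of 12 groups the log2 fold change at the other times was 0.63 at 8AM, -0.29 at 12PM, -1.73 at 8PM, -1.38 at 12AM and -0.07 at 4AM, none of which was called (adjusted p of 0.392 or more). The mean effect did not pass in limma voom (adjusted p = 0.227), with the mast cell covariate (0.124) or without the filter on low counts (0.0533), nor without ad-lib 8AM replicate 2, ad-lib 12PM replicate 2 or ad-lib 4AM replicate 1, with adjusted p of 0.0513, 0.0558 and 0.0542. Under TAN the level of Il5ra varied over the day (adjusted p = 0.0248), from 0 counts at 4PM to a mean of 5.92 CPM (SD 2.13) at 8AM. Leaving out any 1 of the 4 TAN libraries of 4PM gave adjusted p of 0.0511 to 0.0562, and leaving out the filter on low counts 0.0528.

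**Figure D2:**
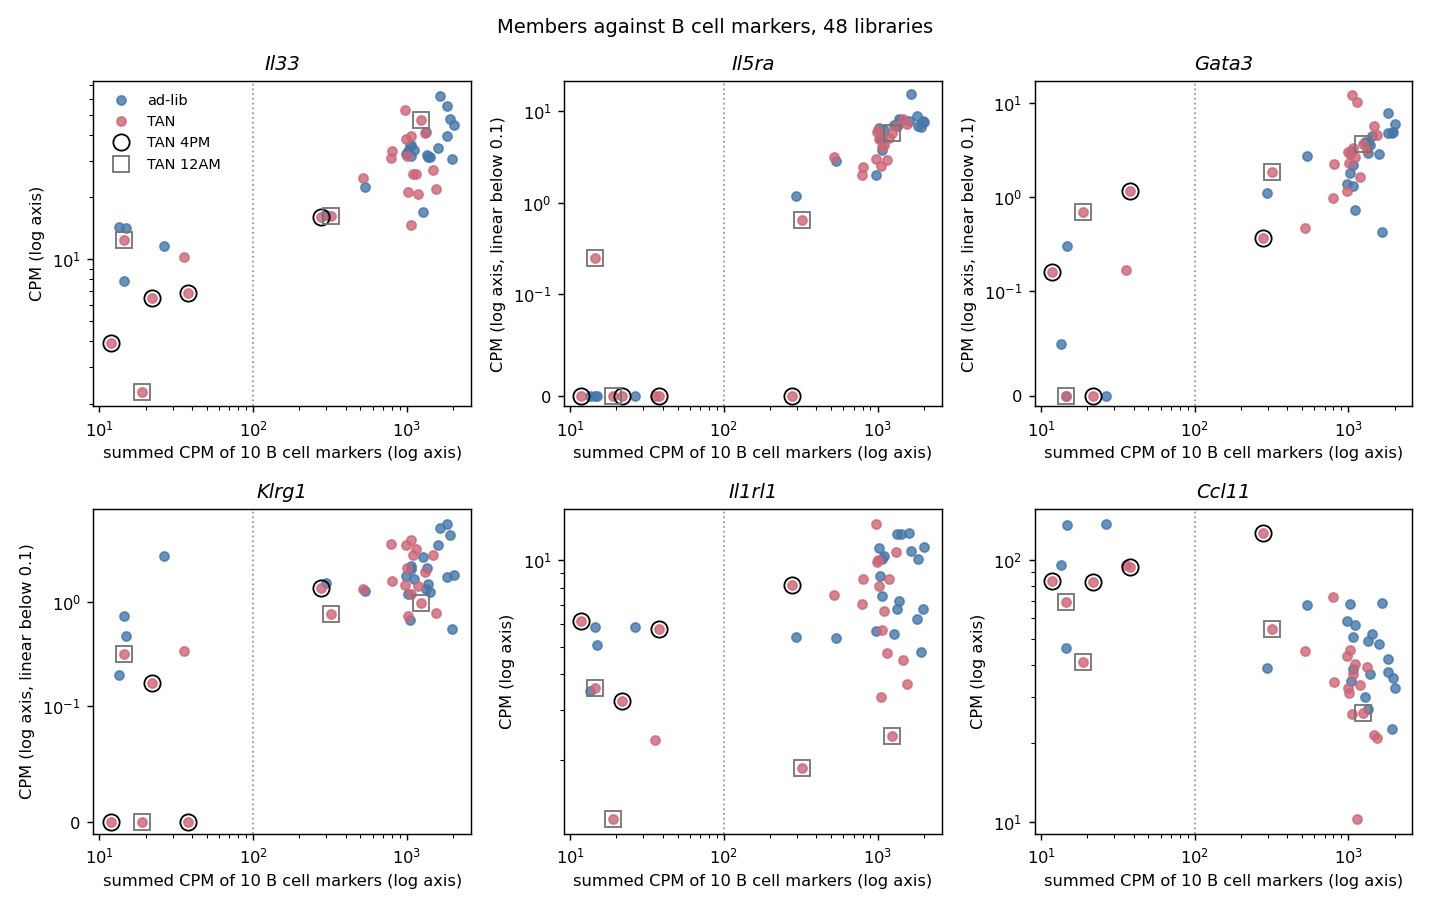
CPM of 6 members against the summed CPM of the 10 B cell markers in each of the 48 libraries (log axes, linear below 0.1 CPM for Il5ra, Gata3 and Klrg1; dotted line at 100 CPM; TAN 4PM circled, TAN 12AM squared). Il33, Il5ra and Gata3 are low in the 10 libraries left of the line in both diets, Klrg1 is low in most of them (up to 2.74 CPM in 1 ad-lib library), Ccl11 is mostly higher there, and the 4 Il1rl1 values of TAN 12AM (1.25 to 3.58 CPM) are low on both sides.

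Gata3 (ENSMUSG00000015619, chr2:9857078-9890034, minus strand), the transcription factor that T helper 2 cells and ILC2 depend on, is also active in other T cells. At 4PM the TAN libraries held 1.16, 0.162, 0.370 and 0 CPM and the ad-lib libraries 0.738, 1.82, 7.86 and 4.52 CPM. TAN replicate 1 lay above ad-lib replicate 1, and the log2 fold change of -3.14 (SE 1.24) did not pass in edgeR (adjusted p = 0.0729), while DESeq2 called it. With the lymphocyte covariate it was 0.49 (SE 0.95). The highest Gata3 values of the series, 12.3 and 10.3 CPM, were in TAN 8PM replicates 1 and 2, the pair of libraries with the most T cell RNA. Its median r was 0.85 with the T cell markers.

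Klrg1 (ENSMUSG00000030114, chr6:122270596-122282882, minus strand), an inhibitory receptor of mature ILC2, effector T cells and natural killer cells, had 0 to 175 counts. At 4PM the TAN libraries had 0, 0, 29 and 3 counts and the ad-lib libraries 29, 24, 44 and 33. The 29 counts were in TAN replicate 3, the one with B cell RNA above 100 CPM, and the log2 fold change of -1.89 (SE 0.94) did not pass in edgeR (adjusted p = 0.151), while limma voom called it. The mean TAN effect was -0.63 (SE 0.36, adjusted p = 0.32) for Klrg1 and -0.30 (SE 0.46, adjusted p = 0.755) for Gata3.

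Of the 10 genes of the ILC2 list (Il1rl1, Gata3, Rora, Il17rb, Il2ra, Klrg1, Areg, Nmur1, Il9r and Hpgds), Nmur1, a neuropeptide receptor that marks ILC2, and Areg, one of their products, were at 0 counts in 38 and 37 of 48 libraries. The list summed to 74.1 to 149 CPM under TAN and 71.0 to 147 CPM ad-lib, and its most abundant gene, Rora, is also used by other cells (1464 counts in the median library). At 8PM the sums were 80.1 to 111 CPM under TAN and 132 to 147 CPM ad-lib, without overlap, while at each other time the groups overlapped. The difference at 8PM was not tested.

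Ccl11 (ENSMUSG00000020676, chr11:82057823-82062955, plus strand, GRCm38) is an eosinophil chemokine made by stromal cells. It had 256 to 3166 counts in every library. At 4PM the TAN libraries held 94.3, 83.3, 127 and 82.8 CPM and the ad-lib libraries 56.5, 68.2, 37.5 and 52.6 CPM. All TAN libraries lay above all ad-lib libraries, but the log2 fold change of 0.85 (SE 0.45) did not pass (adjusted p = 0.175; 2.93% of all genes were called higher). With the lymphocyte covariate it was 0.15 (SE 0.39). At 8AM and 12PM its values were -1.06 (SE 0.45) and -1.11 (SE 0.45), each with an unadjusted p under 0.05 and an adjusted p of 0.594 or more, and the highest ad-lib library of each time, at 138 and 137 CPM, was low in B cell markers.

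Ccl11 lay between 41.0 and 138 CPM in the 10 libraries low in B cell markers and between 10.3 and 127 CPM in the others. Its median r was 0.68 with the adipose progenitor markers (Pdgfra, Dpp4, Pi16, Ly6a, Cd34 and Dcn), 0.66 with the adipocyte markers and -0.63 with the B cell markers. Under TAN its level varied over the day (adjusted p = 0.034), from a mean of 29.9 CPM (SD 10.03) at 8AM to 96.9 CPM (SD 21.0) at 4PM. The adjusted p was 0.269 with the lymphocyte covariate, 0.306 with B and T cell covariates, 0.0548 without the filter and 0.0524 without the 10 libraries low in B cell markers, and without TAN 4PM replicate 1, 3 or 4 or TAN 8AM replicate 1 or 4 it was between 0.0524 and 0.106. The mean TAN effect was -0.18 (SE 0.18, adjusted p = 0.604).

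Siglecf (ENSMUSG00000039013, chr7:43351341-43359531, plus strand), the lectin that marks mouse eosinophils, had a count in 13 TAN and 14 ad-lib libraries, 74 and 89 counts in all, and 24 counts at most, in ad-lib 12PM replicate 2. It was at 0 in all 10 libraries low in B cell markers. At 4AM the TAN libraries had 9, 6, 8 and 12 counts and the ad-lib libraries 4, 6, 0 and 6, and in CPM the groups did not overlap, and the gene did not pass the filter. Without the 10 libraries it did, with a log2 fold change at 4AM of 0.79 (SE 1.53, adjusted p = 0.981). Other genes that define eosinophils were sparser, with Epx at 0 counts in 42, Ear1 in 46 and Ear6 in 47 of the 48 libraries, or less sparse, with Prg2 at 0 in 6 and Ccr3 in 13; the sum of the eosinophil list rested mostly on Ear2, with a median of 125 counts.

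Arg1 (ENSMUSG00000019987, chr10:24915221-24927484, minus strand), the arginase of alternatively activated macrophages and of the hepatic urea cycle, had 0 to 61 counts in 47 libraries and 234 counts in ad-lib 12PM replicate 3. Among the genes most like it in pattern over the 48 libraries were Rdh7, Cyp2d9, Bhmt and Cyp4a14 (Pearson r 0.63 to 0.55), genes known for their expression in liver or kidney. In that same library these had 229, 315, 252 and 111 counts, against a median of 0 counts in the other 47 for each. No TAN effect on Arg1 passed at any time, and its mean effect was 0.87 (SE 0.68, adjusted p = 0.483). The alternatively activated macrophage genes Mrc1, Retnla, Chil3, Clec10a, Mgl2, Cd163 and Cd209d summed to 58.4 to 731 CPM under TAN and 129 to 992 CPM ad-lib, with a median r of -0.16 to Arg1.

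**Figure D3:**
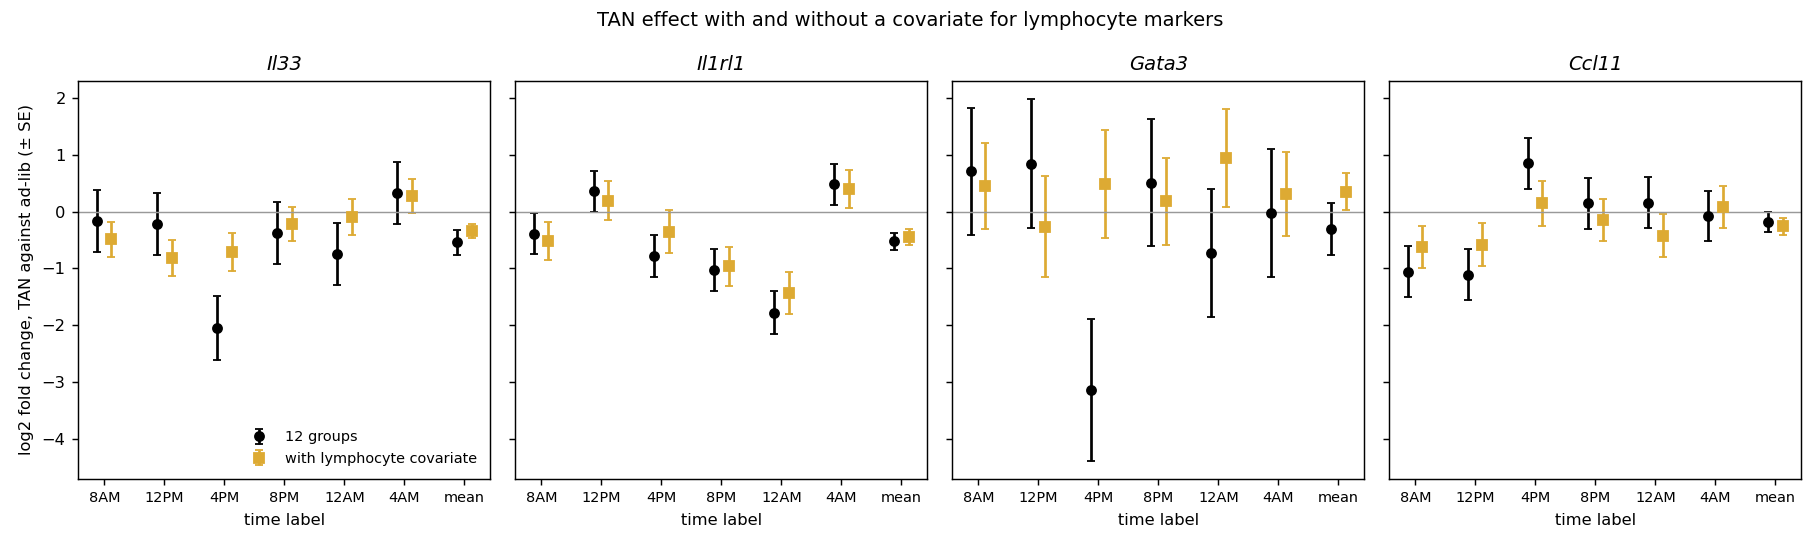
log2 fold change of TAN against ad-lib (± SE) for Il33, Il1rl1, Gata3 and Ccl11 at each time label and averaged over them, from the fit of 12 groups (black circles) and with the lymphocyte covariate (yellow squares). At 4PM the values of Il33 (-2.05 to -0.71), Gata3 (-3.14 to 0.49) and Ccl11 (0.85 to 0.15) move toward or past 0 with the covariate, while Il1rl1 at 12AM moves from -1.78 to -1.43. Il33 moves away from 0 at 8AM (-0.17 to -0.48) and 12PM (-0.21 to -0.81), and toward 0 elsewhere and in the mean.

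Over the 48 libraries the members fell into groups by the markers they moved with. Il33, Il5ra, Gata3 and Klrg1 had their highest median r with the B or T cell markers (0.74 to 0.93). Il1rl1 had its highest with the mast cell and basophil genes (0.67) and the eosinophil genes (0.63), Ccl11 with progenitors and adipocytes, and Arg1 with none of the lists above 0.13. Among the members themselves the pair Il33 and Il5ra had an r of 0.83 and Il33 and Klrg1 of 0.80, while Ccl11 and Gata3 had -0.74 and the ligand Il33 and its receptor Il1rl1 0.59. These values describe libraries that share tissue composition.

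**Figure D4:**
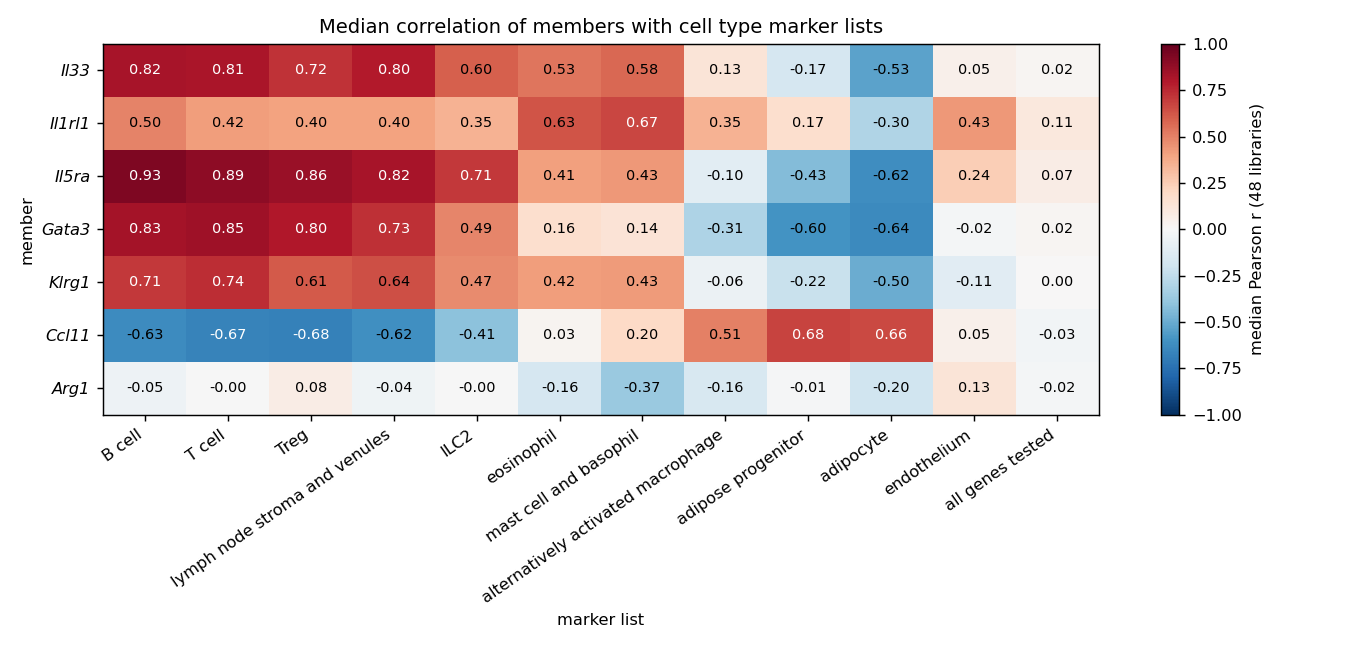
Median Pearson r over 48 libraries (log2 CPM) between each tested member (rows) and the genes of each marker list (columns), with all 19977 tested genes as the last column. Il5ra reaches 0.93 with B cell genes, Ccl11 is negative with the lymphocyte lists (-0.68 to -0.63), and Il1rl1 peaks with the mast cell list (0.67).

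The genes whose pattern was most like that of each member were picked by the highest r of log2 CPM over the 48 libraries. For Il33 they were Lepr, Cd24a, Siglech, Pla2g2d and Rnase6 (0.95 to 0.91), for Il5ra Ralgps2, Rel, Slc38a1, Ptprc and Ifi209 (0.96 to 0.95), and for Gata3 Pik3r5, Tcf7, Apobec3 and Sash3 (0.92 to 0.89). For Klrg1 they were Tspan33, Snx20, Bcl2a1a, Ly6c2 and Pla2g2d (0.85 to 0.83), for Ccl11 Plau, Casp12, Hs2st1, Tm7sf3 and Cpne8 (0.90 to 0.88), and for Il1rl1 S100a9, Serinc5, Entpd1, Cybb and Hdac9 (0.78 to 0.73). Ranked by r of the deviations from the group means instead, 1 (Ccl11), 2 (Il33, Il5ra and Gata3) or 3 (Il1rl1, Klrg1 and Arg1) of each member's 5 stayed among the 5.

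The wider pathway was read from 67 genes in 9 lists, of which 58 were tested. At 4PM 15 of the 58 were called lower and 1 higher under TAN (7.43% and 2.93% of all genes), DESeq2 called 21 and limma voom 15, and the median log2 fold change of the 58 was -1.34. At 8PM 3 were called lower (7.03% of all genes were called in either direction), 5 were called in DESeq2 and 7 in limma voom, and at 8AM, 12PM, 12AM and 4AM 0 were in edgeR, with 6, 4, 6 and 0 at an unadjusted p under 0.05. DESeq2 called 1 gene at 12AM, Il17rb, and 0 at the other 3 times, and limma voom called 0 at all 4. The share of all genes called is not given here for DESeq2 and limma voom. Of the 13 genes of IL-4, IL-5 and IL-13 receptors and signalling, 6 were lower at 4PM: Csf2rb, the shared signalling chain of the IL-5 receptor, fell by 1.81 on the log2 scale (SE 0.50, adjusted p = 0.0182), from 66.7 CPM (SD 20.03) ad-lib to 19.1 CPM (SD 8.3), followed by its paralog Csf2rb2 (-2.37), Jak1 (-1.31), Il4ra (-1.64), the common gamma chain Il2rg (-3.39) and the decoy receptor Il13ra2 (-3.24). Csf2rb and its neighbour Csf2rb2 are near-identical and may share reads.

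Of the 7 ILC2 regulators, Ets1 (-2.18), Gfi1 (-4.32) and Bcl11b (-4.22) were lower at 4PM, and all of them are also T cell genes. Of the 8 genes of co-stimulation and prostaglandin D2, Icos (-3.58), its ligand Icosl (-2.42) and the prostaglandin D2 synthase Hpgds (-1.57) were lower, as was Ptgdr2, the prostaglandin D2 receptor, at 0 counts in all 4 TAN libraries against 13 to 38 ad-lib. Il7r (-4.16), which forms the receptor of the alarmin TSLP, and the chemokine receptor Ccr8 (0 to 4 counts under TAN against 13 to 81 ad-lib) were lower too. The single gene that was higher, Calca, encodes the neuropeptide CGRP and held 4.58 CPM (SD 3.93) under TAN against 0.92 CPM (SD 0.30) ad-lib, a log2 fold change of 2.31 (SE 0.74, adjusted p = 0.0325, edgeR). The lymphocyte covariate left 0 of the 58 called at 4PM, where 0% of all genes were called, so this count is not particular to the 58. Of the 58, 2 had an unadjusted p under 0.05.

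At 8PM the genes called lower were Mrc1, the mannose receptor of macrophages (-1.58, SE 0.42), Il17rb, a chain of the IL-25 receptor (-1.36, SE 0.45), and the ligand Tnfsf15, at 0 counts in all 4 TAN libraries against 3 to 24 ad-lib. With the lymphocyte covariate 10 of the 58 were called at 8PM, counted in either direction, these 3 among them. In that fit 9.56% of all genes were called lower at 8PM. The share of all genes called in either direction in that fit is not given here, so the 10 cannot be set against it. In the mean TAN effect 0 of the 58 were called in edgeR, where 13 had an unadjusted p under 0.05, while DESeq2 called 5 and limma voom 2.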

How the data were processed

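Bulk poly(A) RNA-seq of mouse inguinal fat was measured in 48 libraries. The authors deposited raw counts per gene, whole numbers, with symbols and coordinates; the submitters' processing notes name TopHat 1.3.3, DESeq2 1.20.0, limma, edgeR and the builds mm9, mm10 and GRCm38. The counting tool and the use of strand are not given in the sources used here; 98.1% of the listed genes, and all 10 members, have the start and end of GENCODE M21 on GRCm38. A deposited FPKM table of group means was not used.

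Libraries were grouped by diet and time from the labels. Genes were kept by filterByExpr at a minimum count of 10 (19977 genes), scaled by TMM and tested with edgeR 4.0.16 (R 4.3.3) in 1 quasi-likelihood fit of 12 groups, with Benjamini-Hochberg adjustment over all genes in each comparison. CPM are TMM-scaled, and log2 CPM used a prior count of 2. Alternatives were DESeq2 1.42.0, limma 3.58.1 (voom), RLE factors, no filter, a replicate block, separate fits per time, a covariate of 10 lymphocyte markers, and each library left out; the covariates of B and T cell sums and of mast cell genes and the fit without 10 libraries were chosen after seeing the data. The edgeR, DESeq2 and limma voom fits of 12 groups were tested on simulated data.

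The members, marker lists, pathway lists and tests were chosen with earlier results of these data known. Named were the 10 members, pathway genes called within a time or on average (up to 20), and, per tested member, the 5 genes of highest r, leaving out Gm, Rik and receptor segment genes. Promoter windows are from RefSeq (GRCm38.p6), which matched 7 of the 10 members. Some genes that this rule or the lists would name are not reported here.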

Additional observations from a re-analysis of the deposited data

Results flagged for a closer look

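In groups of 4 libraries, a library was picked out where its gap to the nearest other exceeded Dixon's 95% critical value. Of 112 groups of 4 libraries with a nonzero range, 22 were picked out. Chance picks out about 1 in 20 groups of normally distributed values. A group with a single nonzero library is always picked out, so the 22 cannot be set against that rate. Those of Il5, Il13 and Siglecf rest on a few counts.

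Il33 in ad-lib 8AM replicate 3 was at 55.6 CPM against 11.6 to 16.9 CPM in the other libraries of its group, and Il1rl1 in the same library at 10.1 CPM against 5.38 to 5.85 CPM. Il5ra in TAN 12AM replicate 1 was at 5.75 CPM against 0 to 0.645 CPM. Gata3 in ad-lib 12PM replicate 4 was at 3.63 CPM against 0.0494 to 0.429 CPM, and Klrg1 in TAN 4PM replicate 3 at 1.34 CPM against 0 to 0.167 CPM. Ccl11 in ad-lib 8AM replicate 4 was at 138 CPM against 30.2 to 41.9 CPM. Arg1 was at 11.6 CPM in ad-lib 12PM replicate 3, against 0 to 0.163 CPM, at 2.56 CPM in TAN 12AM replicate 4, against 0 to 0.298 CPM, at 0.516 CPM in ad-lib 12AM replicate 4, against 0 to 0.0613 CPM, and at 0 CPM in ad-lib 4AM replicate 4, against 0.442 to 0.471 CPM.

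Il5 was at 0.0562 CPM in TAN 8AM replicate 1, 0.0487 CPM in ad-lib 8PM replicate 2, 0.215 CPM in ad-lib 12AM replicate 3, 0.207 CPM in TAN 4AM replicate 2 and 0.0521 CPM in ad-lib 4AM replicate 3, with the others of each group at 0, and at 0 CPM in ad-lib 4PM replicate 4 where the others held 0.148 to 0.17 CPM. Il13 was at 0.185 CPM in TAN 4PM replicate 3, 0.169 CPM in TAN 8PM replicate 4 and 0.272 CPM in ad-lib 4AM replicate 4, and Siglecf at 1.03 CPM in ad-lib 12PM replicate 2, 0.284 CPM in TAN 8PM replicate 3 and 0.256 CPM in TAN 12AM replicate 1, each with the others of its group at 0.

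The TAN effect on Il1rl1 differed between the 6 times by the interaction test (adjusted p = 0.0223, edgeR's quasi-likelihood test).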

How the results depend on the processing

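Il5, Il13 and Siglecf had too few counts to pass the filter, and the marker sums differed between the diets at several times. Median B cell sums were 29.8 CPM under TAN against 1263 ad-lib at 4PM, 926 against 1651 at 8PM and 170 against 1055 at 12AM. They were 1288 against 788 at 8AM, 1011 against 699 at 12PM and 990 against 1329 at 4AM. The number of members called in the mean TAN effect (2) was 1 without a filter, 0 with limma voom, 1 with the lymphocyte covariate, 1 with B and T cell covariates and 0 with the mast cell covariate. The number for the difference between times (1) was 3 with DESeq2, 3 with limma voom, 0 with B and T cell covariates and 2 with the mast cell covariate. With the lymphocyte covariate it stayed at 1, but the member was Il5ra (adjusted p = 0.00681, edgeR) and no longer Il1rl1 (0.0832). In the fit of 12 groups Il5ra had an adjusted p of 0.0544. With the lymphocyte covariate the number varying over time in TAN (3) was 2 (Il1rl1 and Il5ra). It was 1 without a filter and 5 with DESeq2, limma voom or the mast cell covariate. At 4PM (2) it was 3 with DESeq2 (Il33, Il5ra and Gata3), 3 with limma voom (Il33, Il5ra and Klrg1), 0 with the lymphocyte covariate, 0 with B and T cell covariates and 1 without the 10 libraries low in B cell markers. At 8PM (0) it was 1 with the lymphocyte covariate (Il5ra, lower under TAN). With the mast cell covariate it was 1 there too (Klrg1, higher under TAN, log2 fold change 2.79, SE 0.98, adjusted p = 0.0356, edgeR). At 12AM (1) it was 0 without a filter, with limma voom and with the lymphocyte or the B and T cell covariates. It was also 0 at 12AM with separate fits and without the 10 libraries. At an unadjusted p under 0.05 it was 1 at 8AM, 1 at 12PM and 1 at 8PM. No alternative moved the count of 0 at 4AM or for time ad-lib. Fits with covariates and without 10 libraries differ from the others in construction. Beyond that, the cause was not tested. For DESeq2, limma voom, no filter, the B and T cell covariates and the fit without the 10 libraries the share of all genes called is not given here. Nor is it for the mast cell covariate outside 12AM or for the difference between times with the lymphocyte covariate. These counts of members therefore have no background beside them.

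Leaving out 1 library at a time gave 0 to 3 members for the mean effect, 1 to 2 for the difference between times, 1 to 5 for time in TAN, 1 to 3 at 4PM, 0 to 1 at 8PM, 0 to 1 at 12AM and 0 elsewhere.

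The log2 fold change changed sign for Il33 with the mast cell covariate at 8AM (0.25) and 8PM (0.78), with limma voom at 12PM (0.0111) and without the 10 libraries at 4AM (-0.00046). The mean effect changed sign for Gata3 with the lymphocyte covariate (0.35) and with B and T cell covariates (0.13), for Ccl11 without the 10 libraries (0.025), and for Arg1 with B and T cell covariates (-0.0776) and the mast cell covariate (-0.0132). With 1 library left out the ranges were -0.41 to 0.56 for Il33 at 8AM, -0.46 to 0.38 at 12PM and -0.50 to 0.0341 for the mean effect on Gata3, which turned without ad-lib 12PM replicate 4. In the fit of 12 groups none of these effects had passed the test.

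The replicate block left every count of members as it was (2 at 4PM, 1 at 12AM, 2 in the mean effect, 1 for the difference between times and 3 for time in TAN). Whether the replicate numbers pair libraries was not tested. Over 24 pairs that share time and number across the diets, deviations from the group means had r of -0.33 to 0.50 (median 0.03). Over all pairs of libraries from different groups the median r was 0.01 with the same number and -0.004 with different numbers. Of the 48 libraries, 19 correlated best with their own number out of 4.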
